A study of Mus musculus with 27 samples.

Results

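Sox1, Sox2, Sox3, Sox8, Sox9 and Sox21, the SoxB and SoxE transcription factors of neural progenitors, were measured in the embryonic mouse optic stalk (OS), the tissue that becomes the optic nerve. The 6 genes were chosen by name out of the 55487 genes counted, and they do not make up the whole of either group. Sox14, a further SoxB gene that was at 0 in every library, and Sox10, a further SoxE gene, were kept among the other Sox genes described last. The 27 RNA-seq libraries came from embryonic day 14 mice on a C57Bl6/J background, in which the dorsal OS, the ventral OS and the axons of the stalk were cut by laser capture from 12 µm sections of the same embryos. The mutants, Smarcc1-DCT-cKO, carried loxP sites on both alleles of Smarcc1 (Baf155, a core subunit of the BAF chromatin-remodelling complex), the Dct-Cre transgene and the Z/EG reporter. The controls were littermates without Dct-Cre. Each region was measured in 4 control embryos and 5 mutant embryos, giving 6 groups. Dct-Cre is driven by sequences of the pigment cell gene Dct and acts in the retinal pigmented epithelium (RPE) as well as in the OS, and the axons themselves belong to retinal neurons. The labels name batches A and B. Batch A held 1 control and 3 mutants, and batch B held 3 controls and 2 mutants.

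Sox proteins bind DNA through a shared HMG box, and they are grouped by how alike that box is. The SoxB1 proteins Sox1, Sox2 and Sox3 are activators that keep neuroepithelial cells in a dividing, undifferentiated state, and Sox2 is needed for the retinal progenitor state in the eye. Sox21, of the SoxB2 group, has the same box but acts mostly as a repressor, and it opposes SoxB1 genes during neuronal differentiation. The SoxE proteins Sox8 and Sox9 act in the step from neural progenitors to glia, and Sox9 also drives cartilage genes. In the OS the neuroepithelial cells become the astrocyte progenitors that surround the retinal axons, and these progenitors carry Sox2 and Sox9.

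The 6 genes were counted separately although they share this box, and the stretch of it in which they were most alike shows how far they differ. The following 120 coding bases of GENCODE M21 transcripts on mm10 hold this stretch, written 5′ to 3′ on the gene's strand in lower case, with capitals marking the bases that differ from Sox2.
Sox2: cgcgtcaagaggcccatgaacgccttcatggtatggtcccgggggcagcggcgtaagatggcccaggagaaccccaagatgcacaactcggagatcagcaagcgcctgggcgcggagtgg
Sox1: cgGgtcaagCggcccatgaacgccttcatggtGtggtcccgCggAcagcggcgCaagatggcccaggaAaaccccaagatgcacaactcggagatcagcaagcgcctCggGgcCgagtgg
Sox3: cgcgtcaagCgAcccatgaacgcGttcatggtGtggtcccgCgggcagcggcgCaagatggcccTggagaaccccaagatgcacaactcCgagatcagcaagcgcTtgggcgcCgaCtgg
Sox21: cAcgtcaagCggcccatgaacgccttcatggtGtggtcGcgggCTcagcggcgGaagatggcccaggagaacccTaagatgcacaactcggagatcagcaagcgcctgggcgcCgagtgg
Sox9: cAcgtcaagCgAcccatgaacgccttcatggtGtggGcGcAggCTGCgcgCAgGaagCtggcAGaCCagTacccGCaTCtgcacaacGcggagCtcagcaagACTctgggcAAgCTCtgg
Sox8: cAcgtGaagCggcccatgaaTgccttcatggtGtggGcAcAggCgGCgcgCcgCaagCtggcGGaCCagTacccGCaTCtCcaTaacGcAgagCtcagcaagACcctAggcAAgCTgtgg
These stretches lie at chr3:34650539-34650658 on the plus strand for Sox2, chr8:12396508-12396627 on the plus strand for Sox1, chrX:60892885-60893004 on the minus strand for Sox3, chr14:118235498-118235617 on the minus strand for Sox21, chr11:112782894-112783013 on the plus strand for Sox9 and chr17:25570112-25570231 on the minus strand for Sox8. Sox21 differed from Sox2 at 9 of the 120 bases, Sox1 at 10 and Sox3 at 11, whereas Sox9 differed at 34 and Sox8 at 35. Identity was 89.2 to 92.5% over the 6 pairs of SoxB genes, 88.3% between Sox8 and Sox9, and 67.5 to 76.7% over the 8 pairs that join a SoxB and a SoxE gene. Over whole transcripts, the longest run of bases shared exactly by any of the 15 pairs was 45 bases, between Sox1 and Sox3.

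Overlap with exons of neighbouring genes was largest for the least abundant members. The genes lie at chr3:34650405-34652461 (Sox2), chr8:12395295-12400126 (Sox1), chrX:60891366-60893430 (Sox3), chr14:118233232-118237030 (Sox21), chr11:112782224-112787760 (Sox9) and chr17:25565892-25570686 (Sox8). Sox9 and Sox3 share no exonic bases with another gene. Sox2 lies in an intron of the same-strand noncoding gene Sox2ot and shares no exonic bases with it. Sox1 shares 1.78% of its exonic bases with the same-strand gene Gm25239, and its span also overlaps that of the same-strand gene Sox1ot without shared exonic bases. Sox8 shares 10.6% of its exonic bases with the antisense gene 2810468N07Rik, and Sox21 shares 18.8% with the antisense gene Gm4675. Whether the counting used strand is not given in the sources used here, so reads over these shared bases cannot be assigned with certainty.

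Levels are given in CPM, the counts of a gene scaled to a fixed library total. The totals were 10.9 M to 34.0 M counted reads, so that 1 read was worth 0.0294 to 0.0917 CPM and the floor of 3 counts used below corresponded to 0.0883 to 0.275 CPM. These limits cover counting error only, since reads had no molecular identifiers. Axon libraries of the mutants detected 9225 to 11358 genes, whereas libraries of the other groups reached up to 16810. Smarcc1 itself was at 130 ± 56.9 CPM (SD, n = 4) in ventral controls and 33.5 ± 19.6 (SD, n = 5) in ventral mutants, and at 124 ± 88.7 and 18.3 ± 18.2 in the axons, with no overlap between the genotypes in either region. Dorsal Smarcc1 levels overlapped (144 ± 97.9 in controls and 54.5 ± 44.9 in mutants), and the dorsal library labelled mutant replicate 2 had 107 CPM. Gene counts do not separate the floxed exons from the rest of the gene. The ventral difference in Smarcc1 had an adjusted p of 0.999 by edgeR's quasi-likelihood test and of 1.77e-05 by DESeq2. The OS markers Pax2, Vax1, Vax2 and Ntn1 were detected in every group, except Vax2, which was at 0 in all axon libraries of the mutants. In those libraries Vax1 had a mean of 0.126 CPM and a highest value of 0.629. The 9 lens markers summed to at most 51.9 CPM in any library.

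Sox9 was the most abundant of the 6 genes in reads per length when all libraries were pooled, followed by Sox2. In the axons Sox2 had the higher mean, at 44.2 CPM per kb against 43.5 for Sox9 in controls and 47.3 against 31.6 in mutants. Over all libraries the mean level per kb of exonic length was 55.4 CPM per kb for Sox9, 43.5 for Sox2, 8.50 for Sox1 and 1.97 for Sox3. Sox9 therefore made up 50.4% of the summed CPM per kb of the 6 genes, Sox2 39.5%, Sox1 7.73%, Sox3 1.79%, Sox21 0.371% and Sox8 0.223%. Sox2 and Sox9 were above 3 counts in all 27 libraries, Sox1 in 23, Sox3 in 21, Sox21 in 5 and Sox8 in 4. All 6 passed the filter on low counts, over 10 in 3 or more libraries. Sox8 and Sox21 passed it through 3 and 4 libraries, so their fitted values rest on those few.

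Sox9, the SoxE activator of glial and cartilage genes, was present in every region of every embryo. In the dorsal OS it was at 244, 263, 237 and 286 CPM in controls 1 to 4 and at 159, 90.6, 192, 119 and 157 CPM in mutants 1 to 5. In the ventral OS it was at 281, 317, 575 and 316 CPM in controls and at 296, 178, 233, 491 and 383 CPM in mutants. In the axons it was at 103, 301, 184 and 133 CPM in controls and at 92.0, 53.0, 125, 351 and 32.8 CPM in mutants. All 5 dorsal mutants lay below all 4 dorsal controls, while the genotypes overlapped in the ventral OS and in the axons. Group means of Sox9 CPM ran from ventral controls (372) through ventral mutants (316), dorsal controls (257), axon controls (180) and dorsal mutants (143) to axon mutants (131). Each pair of neighbours in that order differed by less than the larger of their SDs.

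Sox8, the other SoxE gene, was near or under the floor in most libraries. In the ventral OS the controls had 1, 18, 1 and 276 counts, the last being 17.1 CPM, and 4 of the 5 mutants were at 0, with 1.39 CPM in the remaining one. In the dorsal OS only control 2 had any read, at 0.434 CPM (7 counts), and no axon library exceeded 3 counts. Sox8 thus exceeded 3 counts in 4 libraries, of which 2 were ventral controls. The antisense gene 2810468N07Rik, which overlaps it, was at 24.1 ± 16.2 CPM in the ventral controls and at 5.41 ± 12.1 in the ventral mutants.

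Sox2, the SoxB1 gene of the progenitor state, spanned its widest fold range in the dorsal OS. There it was at 103, 120, 25.5 and 54.7 CPM in controls and at 1.65, 70.8, 3.11, 29.2 and 80.1 CPM in mutants. Ventral Sox2 was at 63.9, 188, 133 and 108 CPM in controls and at 106, 116, 87.9, 153 and 118 CPM in mutants. In the axons it was at 40.2, 105, 190 and 28.6 CPM in controls and at 66.3, 40.3, 46.0, 266 and 68.3 CPM in mutants. The ventral libraries were the most even, and dorsal mutants 1 and 3 stood far below all other libraries. The group means of Sox2 CPM ran from ventral controls (123), ventral mutants (116), axon mutants (97.3), axon controls (90.9) and dorsal controls (75.7) to dorsal mutants (37.0), with no neighbouring pair farther apart than the larger SD.

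Sox1, a second SoxB1 gene, was even in the ventral OS and patchy elsewhere. Ventral Sox1 was at 90.8, 132, 48.0 and 61.6 CPM in controls and at 49.6, 38.2, 48.1, 41.8 and 60.5 CPM in mutants. In the dorsal OS it was at 11.8, 38.3, 0.0590 and 55.0 CPM in controls and at 1.38, 0, 14.8, 0 and 18.9 CPM in mutants. In the axons it was at 0.111, 52.2, 125 and 62.9 CPM in controls and at 41.7, 50.1, 24.5, 42.0 and 0.532 CPM in mutants. Every ventral library was thus at 38.2 CPM or above, whereas libraries near 0 occurred among dorsal controls, dorsal mutants, axon controls and axon mutants. The order of the group means was ventral controls, axon controls, ventral mutants, axon mutants, dorsal controls and dorsal mutants, and no neighbouring pair differed by more than the larger SD.

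Sox3, the X-linked SoxB1 gene, was low everywhere. Dorsal values were 3.58, 0.868, 0 and 3.36 CPM in controls and 3.49, 0.775, 8.41, 6.83 and 10.9 CPM in mutants. Ventral values were 8.94, 4.50, 0.571 and 2.42 CPM in controls and 8.99, 10.3, 0, 1.12 and 9.31 CPM in mutants. Axon values were 0, 2.51, 0 and 0.595 CPM in controls and 0, 0, 9.45, 3.15 and 9.67 CPM in mutants. The genotypes overlapped in all 3 regions. Sox3 was the only one of the 4 more abundant members with the highest group mean in dorsal mutants, followed by ventral mutants, and here too neighbours differed by less than the larger SD.

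Sox21, the SoxB2 repressor, was detected in 5 libraries. In the dorsal OS these were mutants 4 and 5 (0.552 and 5.45 CPM), and in the ventral OS mutants 3 and 4 (0.647 and 4.46 CPM). In the axons it was control 3 alone, with 30.8 CPM (516 counts). All dorsal and ventral control libraries and all axon libraries of the mutants were at 0. The overlapping antisense gene Gm4675 was read in axon control 4 (19.1 CPM) and dorsal mutant 4 (7.52 CPM) and was at 0 in all other libraries.

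**Figure D1:**
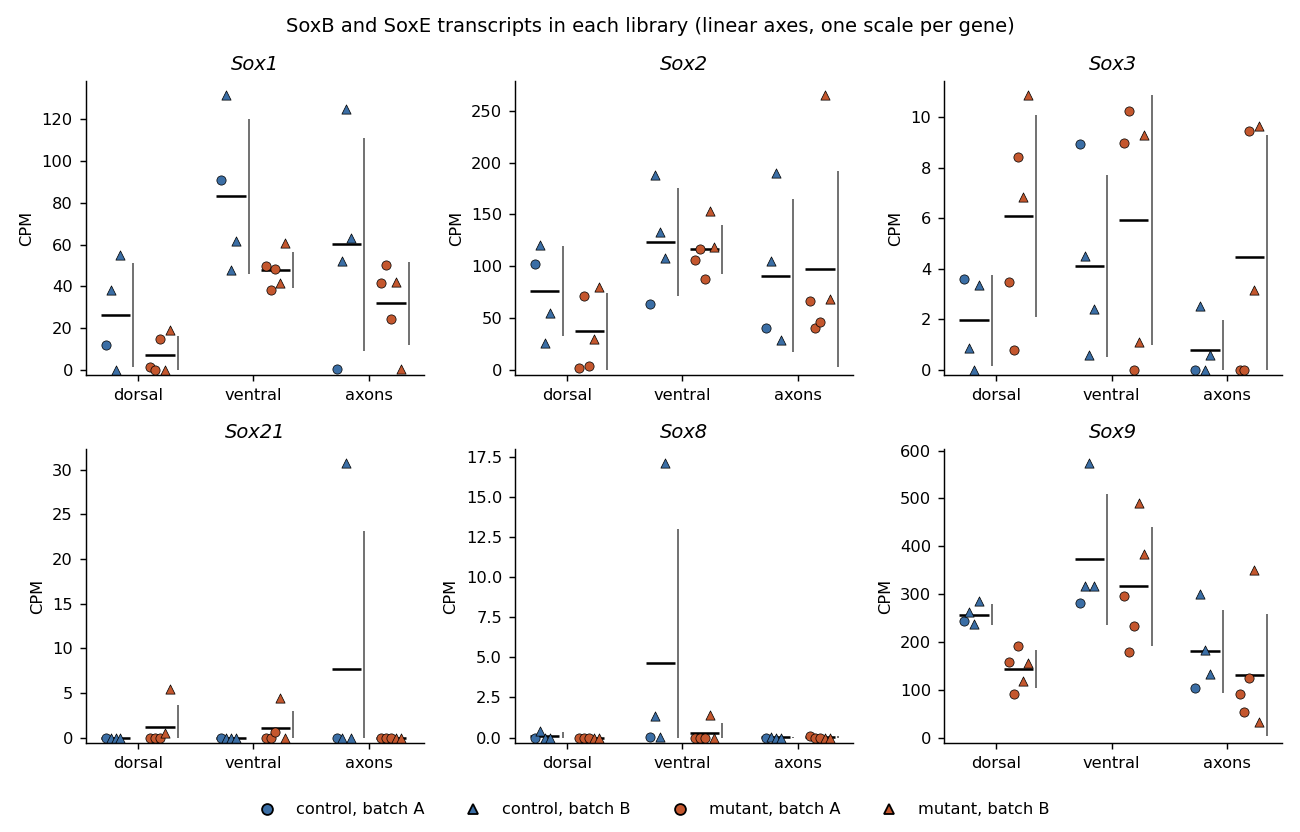
Levels of the 6 genes in CPM (vertical axis, linear, with a scale of its own for each gene) in each of the 27 libraries, by region. Circles are libraries of batch A and triangles those of batch B, blue for controls and orange for mutants, with a horizontal line at the group mean and a vertical line for 1 SD, cut at 0. The 5 dorsal mutants lie below the 4 dorsal controls for Sox9, and Sox8 and Sox21 are above 3 counts in 4 and 5 libraries.

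The balance between Sox9 and Sox2, the most abundant SoxE and SoxB members, also differed among libraries. Per kb, the ratio of Sox9 to Sox2 had a median of 1.89 (range 1.09 to 4.63) in dorsal controls, 2.02 (0.637 to 47.9) in dorsal mutants, 1.81 (0.838 to 2.19) in ventral controls, 1.39 (0.761 to 1.61) in ventral mutants, 1.35 (0.480 to 2.31) in axon controls and 0.658 (0.239 to 1.35) in axon mutants. Sox9 was thus above Sox2 in the median library of 5 groups and below it in axon mutants, with overlapping ranges throughout. As a share of the summed CPM per kb of the 6 genes, Sox9 was 61.7 ± 15.1% and Sox2 32.8 ± 13.7% (SD, n = 4) in dorsal controls, against 33.8 ± 11.4% and 52.5 ± 13.6% (SD, n = 5) in axon mutants.

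**Figure D2:**
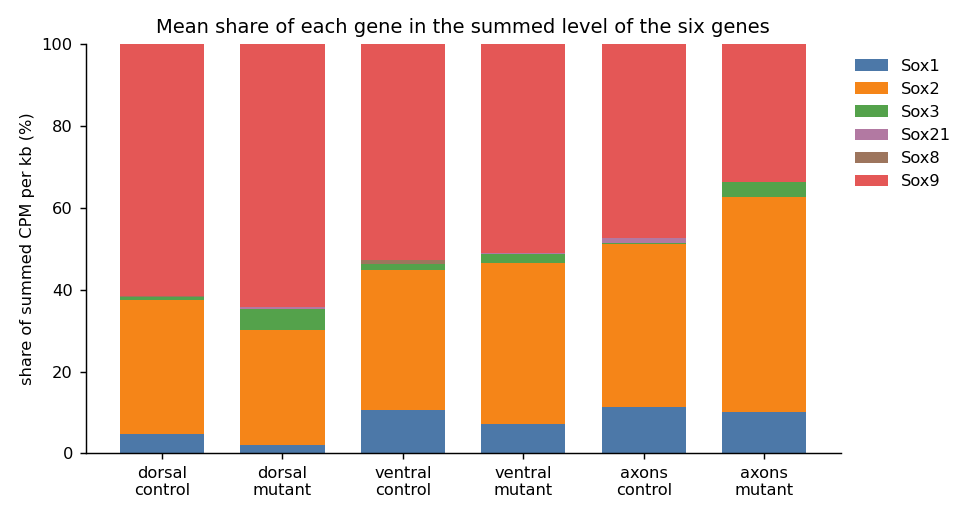
Share of each gene in the summed CPM per kb of the 6 genes (vertical axis, percent), as the mean over the libraries of each group, with 1 stacked bar per group of 4 controls or 5 mutants. The mean Sox9 share runs from 64.3% in dorsal mutants to 33.8% in axon mutants.

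The comparison of mutants with controls in the dorsal OS asked whether loss of Smarcc1 altered these genes where Dct-Cre acts earliest. A gene was called where its adjusted p was under 0.05 and its log2 fold change was over 0.58 in either direction. None of the 6 members was called (0 of 6), against 0.0124% of the 16145 genes tested. Sox9 was the only member with an unadjusted p under 0.05, which 5.35% of the genes tested had, and limma voom, DESeq2 and the newer edgeR method each likewise gave 1 such member and no call. Dorsal Sox9 was at 257 ± 21.8 CPM (SD, n = 4) in controls and 143 ± 39.2 (SD, n = 5) in mutants, a log2 fold change of -0.82 ± 0.33 (SE; adjusted p = 0.918). All 5 mutants lay below all 4 controls, as was the case for 1.61% of the genes tested. Within batch A the single control had 244 CPM and the 3 mutants a mean of 147, and within batch B the 3 controls had a mean of 262 and the 2 mutants 138. Over the 19 alternative settings the log2 fold change of Sox9 stayed between -0.92 and -0.60, with adjusted p from 0.143 to 1.

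Levels of cell type markers also differed between the dorsal groups. The 12 mesenchyme markers, of which Prrx2 was at 0 in both groups, summed to 1159 to 10389 CPM in dorsal controls and to 55.6 to 373 in dorsal mutants. The 12 pigment cell and RPE markers, of which Rpe65 was at 0 in both, summed to 43.5 to 5494 CPM in controls and to 3692 to 14027 in mutants. The 12 cell division markers summed to 1501 to 3321 CPM in controls and to 2914 to 4373 in mutants, the 4 OS markers to 158 to 584 and 4.77 to 117, and the 8 endothelial markers to 240 to 452 and 43.2 to 420. The 8 retinal progenitor markers summed to 165 to 396 CPM in controls and to 425 to 2116 in mutants, and the 9 neural crest markers to 96.9 to 347 and to 0 to 65.6. The mesenchyme, OS, neural crest and retinal progenitor sums did not overlap between genotypes, whereas the pigment, cell division and endothelial sums did. Ntn1 and Ednrb had the highest mean CPM of the OS and neural crest lists (228 and 147 over all libraries) and were their only markers without overlap. Of the 4 OS markers 1 was higher and 3 were lower in mutants, with 0 called. Of 6 neural crest markers tested 2 were higher and 4 lower, with 0 called. Of the genes tested, all 11 mesenchyme and all 8 endothelial markers were lower in mutants, and all 11 pigment and all 12 cell division markers were higher, with 0 of each list called. Of the retinal progenitor markers 6 of 7 tested were higher (median log2 fold change 1.38, 0 called). Markers without overlap and with mutants higher were Pax6 and Lhx2, the pigment markers Tyr, Otx2, Rlbp1 and Ttr, and Birc5, as for 1.31% of genes tested. Those with mutants lower were Ntn1, Ednrb and the mesenchyme markers Foxc1, Col1a1, Col1a2, Col3a1, Pdgfra, Lum and Dcn, as for 1.61%. The part of these cell types in the Sox9 difference was not tested. In captured tissue, fewer cells of a type and less RNA per cell cannot be told apart.

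The dorsal SoxB members were more variable. Sox2 was at 75.7 ± 43.4 CPM in controls and 37.0 ± 36.9 in mutants, a log2 fold change of -0.96 ± 1.09 (adjusted p = 1). Within batch A the single control had 103 CPM of Sox2 and the 3 mutants a mean of 25.2. Within batch B the 3 controls had a mean of 66.8 and the 2 mutants 54.7. Sox1 was at 26.3 ± 24.9 CPM in controls and 7.02 ± 9.11 in mutants (-1.45 ± 2.45, adjusted p = 1), and Sox3 at 1.95 ± 1.79 and 6.08 ± 4.00 (1.66 ± 2.24, adjusted p = 1). The standard errors of all 3 were larger than the differences, so changes of the size seen for Sox9 were not detectable for them. Sox21 was at 0 in all 4 controls and at 1.20 CPM on average in mutants, at least 6.96-fold higher than controls set at the floor of 3 counts per library (adjusted p = 0.918). Of the 90 reads behind this bound 82 came from mutant 5, and without it the mutant mean was 0.138 CPM, under the control floor of 0.172, so that no fold remained. For Sox8 the control mean lay under that floor and no fold is given (adjusted p = 1).

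In the ventral OS the means of Sox2 and Sox9 were close between the genotypes. No member was called and none had an unadjusted p under 0.05, by edgeR, DESeq2, limma voom or the newer edgeR method, while 0% of the 16139 genes tested were called and 3.19% were under that level. Sox9 was at 372 ± 136 CPM in controls and 316 ± 124 in mutants (-0.06 ± 0.28, adjusted p = 0.999), and Sox2 at 123 ± 52.0 and 116 ± 23.9 (0.19 ± 0.39, adjusted p = 0.999). Sox1 was at 83.0 ± 37.1 CPM in controls and 47.6 ± 8.54 in mutants (-0.80 ± 0.56, adjusted p = 0.999), with overlapping values. Sox3 was at 4.11 ± 3.60 and 5.94 ± 4.95 CPM (0.43 ± 2.17, adjusted p = 0.999). Sox8 was at 4.66 ± 8.35 CPM in controls, nearly all from control 4, and 0.279 ± 0.623 in mutants (-3.14 ± 2.22, adjusted p = 0.999). Sox21 was at 0 in the controls and at 1.02 CPM on average in mutants, at least 5.52-fold higher than controls at the floor (adjusted p = 0.999). Of the 86 reads behind it 64 came from mutant 4, and without it the mutant mean was 0.162 CPM, under the control floor of 0.185, so that no fold remained.

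In the axons Sox9 and Sox2 varied severalfold among the embryos of either genotype. Again no member was called by any of the 4 tools (0% of the 14977 genes tested were by edgeR), and none had an unadjusted p under 0.05, which 3.55% of genes had. Sox9 was at 180 ± 87.2 CPM in controls and 131 ± 128 in mutants (-0.15 ± 0.66, adjusted p = 1.00), and Sox2 at 90.9 ± 74.2 and 97.3 ± 94.9 (0.47 ± 0.80, adjusted p = 0.980). Mutant 4 held the highest value of both genes. Sox1 was at 60.0 ± 51.2 CPM in controls and 31.8 ± 19.8 in mutants (-0.53 ± 2.83, adjusted p = 1.00), and Sox3 at 0.776 ± 1.19 and 4.46 ± 4.84 (3.98 ± 3.93, adjusted p = 0.913). Sox21 was at 0 in all mutants and the control mean was at least 47.4-fold higher than mutants at the floor (adjusted p = 0.880), a value that rests on control 3 alone. Sox8 was at or under 3 counts in all 9 libraries.

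**Figure D3:**
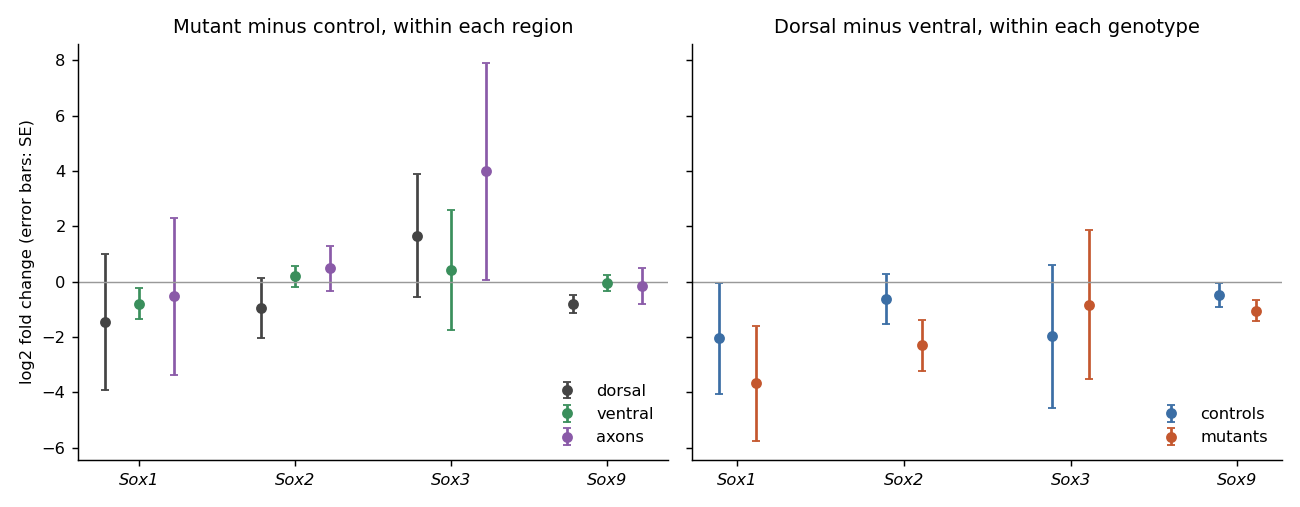
Log2 fold change of mutants against controls (vertical axis, left, by region) and of the dorsal against the ventral OS (right, by genotype) for the 4 more abundant members, with points for the fitted value and bars for its standard error. Dorsal Sox9, at -0.82 ± 0.33 for mutants against controls, has the shortest bar of the 4 dorsal values, and no value passed the test.

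Whether the mutant effect differed between regions was tested directly, within embryos. Between the dorsal and ventral OS no member had a difference with an unadjusted p under 0.05, which 2.29% of the 16330 genes tested had, and 0.00612% were called. Between the dorsal OS and axons (4.95% and 0.0122% of genes) and between the ventral OS and axons (3.89% and 0%) no member did either. For Sox9 the dorsal minus the ventral effect was -0.56 ± 0.58 on the log2 scale (adjusted p = 1). For Sox2 the corresponding difference was -1.69 ± 1.28 (adjusted p = 1). The dorsal Sox9 difference was therefore not shown to be particular to the dorsal OS.

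Among regions, the ventral OS had the highest group mean of Sox9, Sox2 and Sox1 in either genotype, but this order held in all 9 embryos for Sox9 alone. Sox9 was higher in the ventral than in the dorsal library of all 9 embryos, as was Sox1, a pattern that 0.667% of the 16330 genes tested had, and Sox2 was higher there in 8 of 9. Sox9 was also higher in the ventral OS than in the axons in 9 of 9 embryos, as for 1.24% of genes. Sox2 was higher in the ventral OS than in the axons in 7 of 9 embryos, and Sox1 in 5 of 9. The shares of genes given here cover 9 of 9 embryos only, so the lower counts have no share beside them. The ventral to dorsal fold of Sox9 ran from 1.11 to 4.13 among embryos, with a median of 1.18 in controls and 1.96 in mutants. Its ventral to axon fold ran from 1.06 to 11.7, with a median of 2.74. For Sox2 the ventral to dorsal fold was 0.623 to 5.21 in controls (median 1.77) and 1.48 to 64.2 in mutants (median 5.24), the upper end coming from mutant 1, whose dorsal library had 1.65 CPM.

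**Figure D4:**
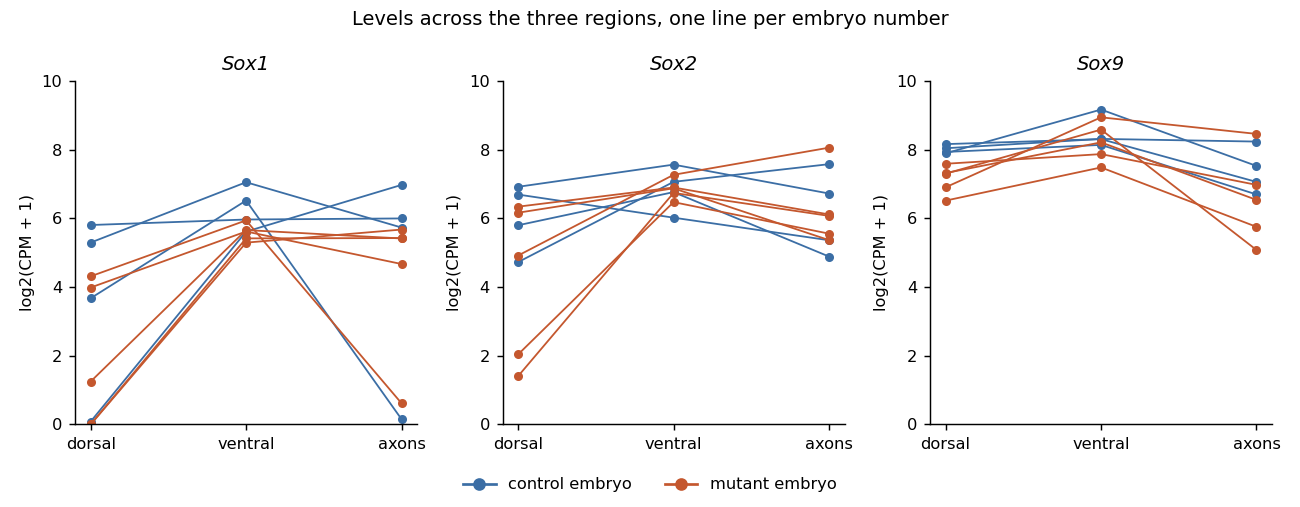
Levels of Sox1, Sox2 and Sox9 as log2(CPM + 1) (vertical axis) in the dorsal OS, the ventral OS and the axons, with 1 line per embryo, blue for controls and orange for mutants. For Sox9 and Sox1 the line rises from the dorsal to the ventral library in 9 of 9 embryos.

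By edgeR none of these regional differences passed the test within 1 genotype. In mutants, dorsal Sox2 was lower than ventral Sox2 by a log2 fold change of -2.31 ± 0.91 (adjusted p = 1). It was lower in each of the 5 mutant embryos, as for 3.74% of genes. Dorsal Sox9 of mutants was lower than ventral Sox9 by a log2 fold change of -1.05 ± 0.39 (adjusted p = 1). These were the only members with an unadjusted p under 0.05 there, which 3.71% of genes had, and no member was called, against 0.0306% of genes. No member was called in controls, where 0% of genes were. DESeq2 called Sox2 in this comparison of mutants, and it called Sox1 and Sox2 between the dorsal OS and axons of mutants. It also called Sox9 between the ventral OS and axons of mutants (adjusted p = 0.00288 by DESeq2). The percentages of genes called here are those of edgeR. The share that DESeq2 called is not given, so its calls cannot be set against all genes. By edgeR, dorsal Sox2 was lower than axon Sox2 in mutants by a log2 fold change of -1.97 ± 0.93 (adjusted p = 0.402), again with an unadjusted p under 0.05, which 12.2% of genes had there while 0.698% were called. By edgeR, ventral Sox9 was above axon Sox9 in mutants by 1.35 ± 0.40 (adjusted p = 0.168), where 11.2% of genes had an unadjusted p under 0.05 and 0.545% were called. In controls no member was called between the ventral OS and axons, where 4.51% of genes had an unadjusted p under 0.05 and 0.251% were called. Sox8 passed the filter on low counts through ventral libraries alone (18, 276 and 20 counts in control 2, control 4 and mutant 4), so no test of it against the axons is given. In controls no member was called between the dorsal OS and axons, where 0.704% of genes were.

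Averaged over both genotypes, a comparison chosen after these values were seen, Sox9 had its highest mean in the ventral OS. Ventral Sox9 was at 341 ± 125 CPM (SD, n = 9), dorsal Sox9 at 194 ± 67.4 and axon Sox9 at 153 ± 108. Sox9 was lower in the dorsal than in the ventral OS by a log2 fold change of -0.77 ± 0.29 (adjusted p = 0.916) and Sox2 by a log2 fold change of -1.46 ± 0.65 (adjusted p = 1). Both had an unadjusted p under 0.05, as had 4.71% of genes, and 0.049% of genes were called. Ventral Sox9 was above axon Sox9 by 1.12 ± 0.30 (adjusted p = 0.0865), where 11.8% of genes had an unadjusted p under 0.05 and 0.857% were called. It passed the threshold in 4 of the 17 alternative settings, 1 of them leaving out mutant 4 (adjusted p = 0.0236). The share of all genes called in those settings is not given. No member was called between the dorsal OS and axons (1.35% of genes called). Markers of other cell types differed between regions as well. In the dorsal against the ventral OS all 11 mesenchyme markers tested (median log2 fold change 4.46), all 11 pigment markers (3.28) and all 8 endothelial markers were higher in the dorsal OS, and all 12 cell division markers (-0.46) and all 4 OS markers (-1.77) were lower, with 0 of each list called. In the ventral OS against the axons all 11 mesenchyme markers were lower (-5.69, 2 called, Dcn and Foxc1) and 10 of 11 pigment markers higher (2.46, 1 called, Tyr). In the dorsal OS against the axons all 11 pigment markers were higher (8.19, 5 called, Dct, Oca2, Ttr, Tyr and Tyrp1). There 2 mesenchyme markers were higher and 9 lower (-0.84, 0 called). Of 10 neuron and ganglion cell markers 5 were higher and 5 lower there, with 1 called, Nefm, lower in the dorsal OS. The part of these markers in the Sox differences between regions was not tested. Axon comparisons depended on the reference, since all genes together had a median log2 fold change of 0.95 between the ventral OS and axons of mutants and 0.91 over both genotypes. Relative to that median, the Sox9 value was 0.40 in mutants and 0.21 over both genotypes, and relative to the median of the 4078 genes with a mean of at least 50 CPM it was 1.20 and 0.98. For the dorsal OS against the axons of mutants the median of all genes was 0.91, so that Sox2 lay -2.88 from it. In control axons these medians were 0.33 against the dorsal and 0.35 against the ventral OS, and scaling by RLE or total counts in place of TMM moved the axon medians by up to 0.20.

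The factors that act with Sox2 and Sox9 were split in direction in the dorsal OS, and none passed the test by edgeR. Of 13 partner factors, 6 had higher and 7 lower values in dorsal mutants, 0 were called, and the median log2 fold change was -1.12 against -0.04 over all genes, the value of Nfix, whose standard error was 4.18. An unadjusted p under 0.05 by edgeR was found for 4 of the 13, against 5.35% of the genes tested. Hes1, a Notch target that keeps progenitors undifferentiated, was at 264 ± 57.6 CPM in controls and 86.9 ± 12.2 in mutants (-1.52 ± 0.33, adjusted p = 0.380). The nuclear factors Nfia and Nfib, which act with Sox9 in the onset of glial genes, were at 156 ± 81.8 against 39.9 ± 20.9 CPM (-1.80 ± 0.67, adjusted p = 0.918) and at 604 ± 450 against 184 ± 62.5 CPM (-1.39 ± 0.49, adjusted p = 0.918). Pax6, which partners Sox2 on eye enhancers, was at 61.5 ± 30.5 CPM in controls and 303 ± 71.8 in mutants (2.27 ± 0.38, adjusted p = 0.104). The genotypes did not overlap for any of these 4 factors, as for 1.61% of genes with mutants lower and 1.31% with mutants higher. Ventrally, 5 partners were higher and 8 lower (median -0.14, all genes -0.08), and in the axons 2 were higher and 11 lower (median -1.20, all genes -0.29), with 0 called. Between genotypes 0.0124% of all genes tested were called in the dorsal OS and 0% in the ventral OS and in the axons. The absence of calls is therefore not particular to the partners or to the lists below. These calls are those of edgeR, and results of DESeq2 for the partners and lists are not given here.

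No radial glia or astrocyte progenitor gene passed the test between genotypes either. Of the 18 genes on this list 15 were tested in the dorsal OS, where 5 were higher and 10 lower in mutants, 0 were called and the median was -0.84. An unadjusted p under 0.05 by edgeR was found for 2 of the 15, against 5.35% of the genes tested. Vim, an intermediate filament of radial glia, was at 1754 ± 577 CPM in dorsal controls and 839 ± 227 in mutants (adjusted p = 0.865), and Slc1a3, a glutamate transporter of astrocytes, at 389 ± 147 and 116 ± 35.1 (-1.51 ± 0.31, adjusted p = 0.293). Neither overlapped between genotypes, with mutants lower as for 1.61% of genes. Fabp7, a fatty acid binding protein of radial glia, was at 167 ± 46.7 and 101 ± 72.7 CPM, and Id3, an inhibitor of differentiation factors, at 600 ± 269 and 763 ± 196, both overlapping. The mature astrocyte genes Aldh1l1, S100b and Gfap were at 0 in all dorsal libraries, whereas Aqp4, the water channel of astrocytes, was at 3.44 ± 6.89 CPM in dorsal controls (highest 13.8) and 0.705 ± 1.58 in mutants (highest 3.52). Ventrally, 6 of these genes were higher and 9 lower (median -0.14), and in the axons 5 of 14 tested were higher and 9 lower (median -0.17), with 0 called in either region.

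Some genes of these lists did pass the test between regions, and they are named here after their values were seen. In mutants, Vim was lower in the dorsal than in the ventral OS by a log2 fold change of -1.24 ± 0.12 (adjusted p = 7.49e-06) and Fabp7 by -2.98 ± 0.44 (adjusted p = 0.00794), and the partner factor Hes1 by -1.70 ± 0.29 (adjusted p = 0.0358). Over both genotypes Vim fell by 0.75 and Fabp7 by 2.46 on the log2 scale from the ventral to the dorsal OS (adjusted p = 0.000224 and 0.00103). Against the axons of mutants, edgeR called Vim (-1.53 ± 0.12, adjusted p = 2.38e-07), Nes, Fabp7 and Slc1a3 lower in the dorsal OS. It called Nes lower in the ventral OS than in those axons. In controls Vim, Fabp7 and Nes were called lower in the dorsal OS than in the axons. Over both genotypes Vim, Nes, Fabp7 and Id3 were called lower in the dorsal OS, and Nes in the ventral OS, than in the axons. The shares of all genes called are those given above.

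The cartilage genes that Sox9 activates were also split in direction, and none passed the test between genotypes. Of 10 genes 7 were tested in the dorsal OS, with 2 higher and 5 lower in mutants, 0 called and a median of -1.69. An unadjusted p under 0.05 by edgeR was found for 4 of the 7, against 5.35% of the genes tested. Col2a1, the main cartilage collagen, was at 236 ± 105 CPM in dorsal controls and 55.7 ± 28.7 in mutants (-1.69 ± 0.54, adjusted p = 0.918), and at 362 ± 55.7 and 198 ± 54.5 CPM in the ventral OS (-0.89 ± 0.27, adjusted p = 0.999). In both regions its genotypes did not overlap, which 1.61% of genes tested in the dorsal and 0.706% of those in the ventral OS did with mutants lower. Col9a1, a collagen of the same fibrils, was at 559 ± 377 and 204 ± 132 CPM in the dorsal OS and 383 ± 152 and 141 ± 97.3 in the ventral OS, with overlap in both. Col11a1 was at 103 ± 24.5 and 70.6 ± 63.0 CPM in the dorsal OS and at 66.2 ± 37.3 and 51.2 ± 24.6 in the ventral OS, with overlap in both. In the dorsal OS Cnmd, which encodes the cartilage protein chondromodulin, was at 39.4 ± 19.3 and 0.982 ± 1.52 CPM without overlap (adjusted p = 0.918). Col9a3, a further chain of the same collagen as Col9a1, named here after its values were seen, went the other way, at 0.101 ± 0.202 CPM in dorsal controls and 21.7 ± 17.3 in mutants (adjusted p = 0.918), with overlap. Ventrally, 3 of these genes were higher and 3 lower (median -0.37), as in the axons (median -0.25), with 0 called.

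Other Sox genes, which served as a comparison, overlapped between the genotypes in every region, and none was called by edgeR. Of 13 such genes 10 were tested in the dorsal OS, with 4 higher and 6 lower, 0 called and a median of -0.19. Of these 10, 1 had an unadjusted p under 0.05 by edgeR, which 5.35% of the genes tested had. This was Sox17, named here after its values were seen, at 0 in dorsal controls and 3.25 ± 3.33 CPM in mutants. The SoxC genes Sox11 and Sox4, which act in differentiating neurons, were at 623 ± 552 against 512 ± 231 CPM and at 298 ± 138 against 254 ± 69.0 in the dorsal OS. Sox5, a SoxD gene, was at 57.4 ± 28.4 and 18.3 ± 10.1 CPM, and Sox12 at 28.6 ± 19.3 and 25.0 ± 16.9. The genotypes of all 4 overlapped. Ventrally, 5 were higher and 3 lower, and in the axons 5 were higher and 4 lower, with 0 called. Sox10, the SoxE gene of the neural crest, was at 0 in all 15 mutant libraries and in 7 of the 12 control libraries, with at most 21.2 CPM in the other 5.

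Genes whose levels followed the members across the 27 libraries were ranked by Pearson correlation of log2(CPM + 1), as a description over libraries that share embryos and differ in depth. Among 9109 protein-coding candidates, Sox9 was most like Kirrel (r = 0.81), Itih5 (0.79) and Gas1 (0.78), and for Kirrel r was 0.80 within controls and 0.81 within mutants. Sox1 was most like Pdpn (0.76), which is on the list of astrocyte progenitor genes, Kitl (0.74) and Mfsd11 (0.74). For Pdpn r was 0.95 within controls and 0.52 within mutants. Sox2 was most like Hmgn3 (0.84), Cpne8 (0.83) and Clta (0.80), where r was 0.90, 0.92 and 0.95 within mutants but 0.49, 0.31 and 0.26 within controls. By Spearman rho (0.56, 0.67 and 0.62) these 3 genes ranked 83, 13 and 38 for Sox2. Kirrel for Sox9 and Pdpn for Sox1 ranked 1 by either measure. Sox3 was most like Fastkd2 (0.73), Bcl7a (0.71) and Gen1 (0.69). Sox8 and Sox21 were read in too few libraries to be ranked. Among the members the closest pairs were Sox1 with Sox9 (r = 0.51) and Sox1 with Sox2 (0.49), and Sox2 and Sox9 had an r of 0.35 and a Spearman rho of 0.62. Sox2 and Sox2ot, the noncoding gene around it, had an r of 0.57.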

How the data were processed

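Laser-captured regions of the E14 optic stalk were sequenced by the authors with the Geo-seq protocol as single-end reads without molecular identifiers. The authors deposited raw counts per gene, which per the labels and the methods came from the Seq2Science workflow with STAR on mm10 and HTSeq (the notes also name Salmon). Tool versions, the annotation and the strand setting are not given in the sources used here. Libraries of embryonic day 12 tissue are not analysed here. The 27 count columns each matched 1 sample, and replicates are separate embryos.

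The members were named by a rule that uses no measured value, but that rule, the gene lists and the tests were set with earlier results of these data known. Counts were scaled by TMM, and genes over 10 counts in 3 or more libraries were tested by edgeR 4.0.16 (R 4.3.3) with the two-sided quasi-likelihood F-test and Benjamini-Hochberg adjustment over all genes. Calls needed an adjusted p under 0.05 and a log2 fold change over 0.58 in either direction. Genotypes were compared within each region over 9 libraries with batch as a term. Regions, and the difference in genotype effect between them, were tested over all 27 libraries with the embryo as a block, and 16330 genes passed the filter there. CPM are counts scaled by the library's total, and CPM per kb divide by the exonic length of GENCODE M21, which held 55227 of the 55487 gene identifiers (the other 260 took 0.00287% of counts). Alternatives were RLE or total count scaling, other count filters, DESeq2 1.42.0, limma 3.58.1 voom, edgeR's newer method, other terms or libraries in the fit, and leaving out each embryo. The scripts were tested on simulated data.

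The series text says that the regions were cut from the same embryos, and libraries with the same genotype and number were taken as 1 embryo. Deviations from the group mean correlated by -0.02 to 0.11 between same-numbered libraries (27 pairs, 2 above 0.1, median 0.04, against -0.01 for other numbers). In 17 of the 27 pairs the same-numbered library was the best match in the other region. The pairing in the data was thus weak in size, though the numbers matched in most pairs. The text names all 6 members, the 4 genes of each related list with the highest mean CPM, members of region comparisons with an unadjusted p under 0.05, the 3 most alike genes and Smarcc1. The comparison of regions over both genotypes and the median of genes with a mean of at least 50 CPM were added after seeing the data.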

Additional observations from a re-analysis of the deposited data

Results flagged for a closer look

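For Sox1, Sox2, Sox3 and Sox9, 1 library stood apart from the others by more than Dixon's critical value in 3 of 24 groups of 4 or 5 libraries. Chance gives about 1 group in 20 for independent, normally distributed values. These groups share embryos, and each library that stood apart was the highest of its group, so that rate is only a rough guide. For Sox8 and Sox21 it did so in all 8 groups with any read, but in 5 of these only 1 library was above 0, which passes that value by construction, so the chance rate does not apply to them. In mutant 4, axon Sox2 was at 266 CPM (the next library 68.3) and axon Sox9 at 351 CPM (next 125). In control 3, ventral Sox9 was at 575 CPM (next 317). Sox8 stood apart in ventral control 4 at 17.1 CPM (next 1.37), in ventral mutant 4 at 1.39 CPM, in dorsal control 2 at 0.434 CPM, in axon control 2 at 0.0546 CPM (1 count) and in axon mutant 1 at 0.114 CPM (2 counts). Sox21 stood apart in axon control 3 at 30.8 CPM (516 counts, the others 0), in dorsal mutant 5 at 5.45 CPM (next 0.552) and in ventral mutant 4 at 4.46 CPM (next 0.647).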

How the results depend on the processing

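No member was called in any of the 3 genotype comparisons under any alternative run. Among region comparisons, DESeq2 called 2 members between the dorsal OS and axons of mutants (Sox1 and Sox2), 1 between the dorsal and ventral OS of mutants (Sox2) and 1 between the ventral OS and axons of mutants (Sox9). The share of all genes called under these alternatives is not given, so such calls cannot be set against it. Between the ventral OS and axons over both genotypes, DESeq2, the newer edgeR method and total count scaling each called 1 member, Sox9 (adjusted p = 0.000566, 0.0449 and 0.0419), and leaving out each embryo gave 0 to 1 calls, the call coming without mutant 4 (adjusted p = 0.0236). The replicate block was the embryo: without it 0 members were called in any region comparison or comparison of genotype effects, and Sox9 between the ventral OS and axons over both genotypes had a log2 fold change of 1.00 (adjusted p = 0.0852). For the comparisons of genotypes no paired analysis was possible, because control and mutant numbers belong to different embryos. Some small genotype differences reversed. Ventral Sox2 was at -0.091 in batch B alone and -0.083 without the batch term, and between -0.11 (without control 1) and 0.37 with 1 embryo left out. Ventral Sox3 was at -0.84 by limma voom and between -0.84 (without mutant 5) and 1.07 with 1 embryo left out. Ventral Sox9 was at 0.081 in batch B alone and between -0.17 and 0.15 with 1 embryo left out, above 0 without control 1 (0.07), control 3 (0.15) or mutant 2 (0.02). With 1 embryo left out, axon Sox1 ran from -1.99 to 3.52 (0.12 without control 3, 0.22 without mutant 4, 3.52 without mutant 5), axon Sox2 from -0.18 (without mutant 4) to 0.85, and axon Sox9 from -1.41 (without mutant 4) to 0.24 (0.04 without control 2, 0.24 without mutant 5). The cause of these shifts was not tested. Dorsal Sox9, Sox2, Sox1 and Sox3 kept their direction in all 19 alternatives, but the size of the SoxB values moved widely. The log2 fold change ran from -2.04 to -0.25 for Sox2, from -5.69 to -0.89 for Sox1 and from 1.23 to 2.69 for Sox3. Depth limits Sox8 and Sox21, for which a library at 0 allows up to 0.0883 to 0.275 CPM.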
